A study of Mus musculus with 9 samples.

Results

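The neuronal marker panel was 32 genes, chosen by symbol, out of 54134 entries of the count table, and each of the 32 had an entry. The genes are ones by which a neuron is commonly recognised, from the microtubule and neurofilament cytoskeleton through synaptic vesicles, transmitter receptors and transmitter synthesis to neuronal transcription factors and RNA-binding proteins. Messenger RNA was sequenced from wild-type mouse cells grown in DMEM with fetal bovine serum, which the sample titles call HT22, the cell line label calls mouse hippocampal neuronal and the cell type label calls HT-4. Control cells were left untreated, Hb cells were treated with oxyhemoglobin, and Hb+NTR1 cells were treated with oxyhemoglobin together with NTR1 (written NGR1 in the title of the series), with 3 libraries in each group. The agent was not given alone in any group, so its effect is seen only on top of oxyhemoglobin. Nothing in the labels says whether a group's libraries are independent cultures. The p-values therefore reflect spread between the sequenced samples alone, and that spread may be technical.

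HT22 is known as a subline of HT4, a mouse hippocampal line immortalised with the SV40 large T antigen. It divides in serum, and it is widely used for glutamate toxicity that acts through cystine uptake and oxidative stress and not through glutamate receptors. Different panel genes mark different stages and types of neurons, from progenitors to mature glutamate or GABA neurons, and in non-neuronal cells many of them are held silent by REST, a zinc finger repressor that binds a long DNA element called RE1. Many of the proteins also have a close relative that is made in most cell types, such as SNAP23 for SNAP25 or the HuR protein (Elavl1) for the neuronal Hu proteins.

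Library totals ran from 13415648 to 16893746 counts. An absent gene is limited to 3 counts per library, equal to 0.178 to 0.224 CPM (counts scaled to the size of the library), and this bound is for counting error alone. Gene levels are CPM normalised between libraries by the TMM method, mean ± SD over n = 3 libraries, or, where genes are compared with each other, as TPM, a transcript share that also divides by exon length. The first principal component held 72.7% of the variance. Hb replicate 2 differed more from its group than the other libraries did from theirs (chi-square divided by its degrees of freedom 13.2 and 11.04, other pairs 2.53 to 5.19).

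In the control libraries 6 of the 32 panel genes were detected, meaning over 3 counts in each library and a mean of at least 1 CPM. The 6 were Dlg4, Ncam1, Bdnf, Tubb3, Syn1 and Camk2a. This was 18.8% of the panel, where 49.5% of the 21803 protein-coding entries were detected by the same rule. Another 13 panel genes had a few counts, and 13 had no count in any control library. Map2, Snap25, Ntrk2, Grin2b, Gad1 and Uchl1 were without a count in all 9 libraries. The detected genes held 99.2% to 99.5% of all counts of the panel in each control library. Just inside the limit lay Camk2a at 3.65 ± 0.840 CPM and just outside it Elavl3 at 0.529 ± 0.192 CPM. Some genes with few or no counts share exon bases with a gene on the opposite strand. These bases were 32.8% of the exon length of Nefl, 19.2% of Nefm, 18.1% of Uchl1, 16.8% of Syp and 13.5% of Grin1. Whether reads from such bases were left uncounted was not tested. In bulk samples fewer cells that make an RNA and less of it per cell cannot be told apart.

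**Figure D1:**
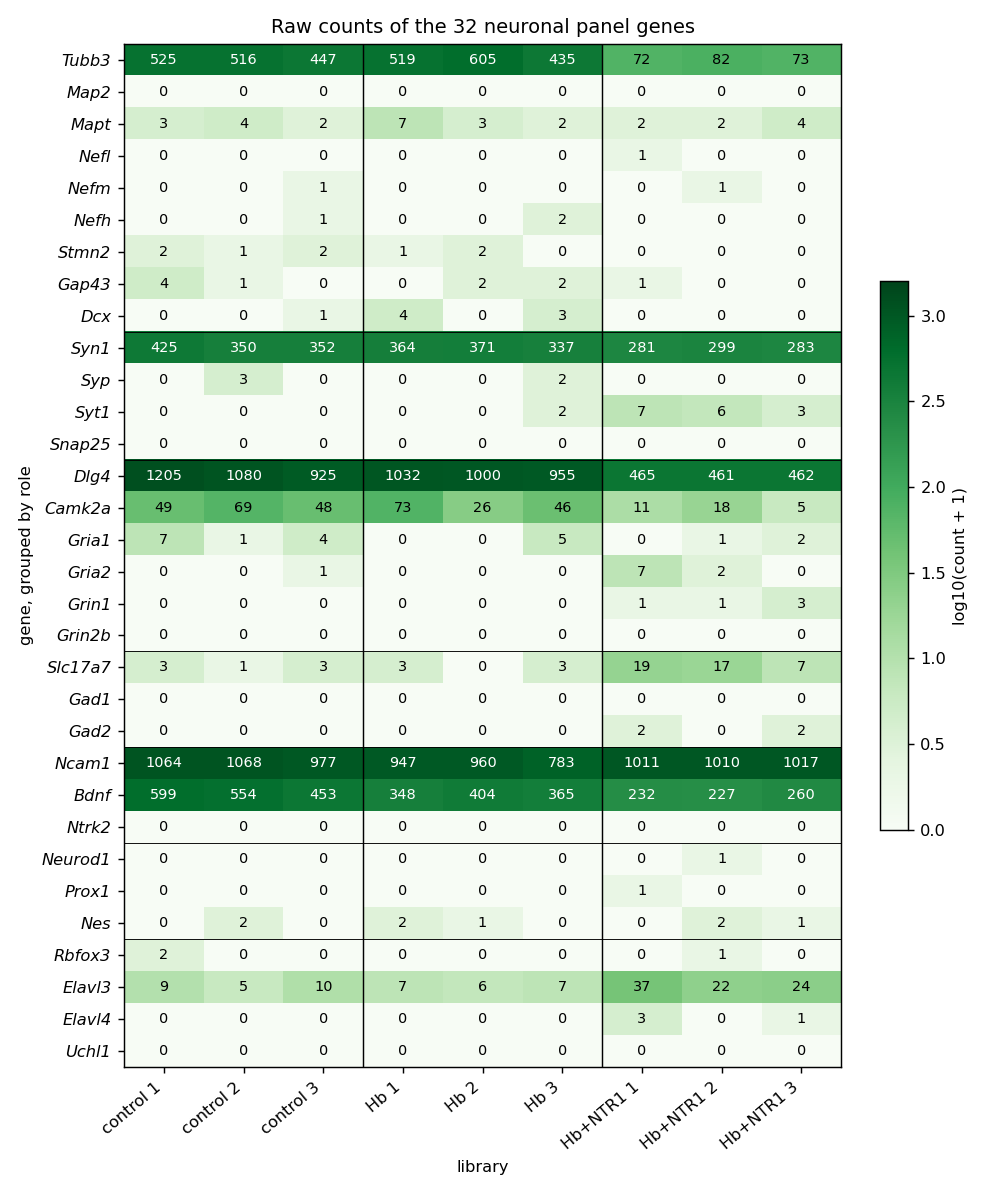
Raw counts of each of the 32 panel genes (rows, grouped by role) in each of the 9 libraries (columns), shaded by log10(count + 1). Dlg4, Ncam1, Bdnf and Syn1 stand out in every library, and Tubb3 in those of control and Hb. Tubb3 in Hb+NTR1 (72, 82 and 73 counts) and Camk2a are faint, and 6 rows are 0 throughout.

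Among the cytoskeletal genes, Tubb3, the class III beta-tubulin of neuronal microtubules (chr8:123411424-123422015, GRCm38), was the only one detected in control. At 54.1 ± 2.04 TPM it stood above 72.6% of the detected protein-coding genes. It was nonetheless a small part of the beta-tubulin RNA. Tubb5, which is made in most cells, was at 1790 ± 48.4 TPM, or 33.15 times the level of Tubb3, and Tubb4b, Tubb6 and Tubb2a were 10.0, 4.81 and 4.27 times as high as Tubb3. Reads of the highly similar tubulin genes can be assigned to a sister gene, so these ratios are uncertain. Map2 (a microtubule protein of dendrites) had no count, whereas the broadly made Map4 was at 78.4 ± 3.46 TPM. Mapt, which encodes the axonal protein tau, had 3, 4 and 2 counts in the control libraries. The neurofilament chains Nefl, Nefm and Nefh, which fill mature axons, had 0, 1 and 1 counts over the 3 control libraries together. The growth cone genes Stmn2 and Gap43 had 5 counts each, and Dcx, a microtubule protein of migrating young neurons, had 1. Vim, the intermediate filament of dividing and mesenchymal cells, was at 1884 ± 73.3 TPM in the same libraries.

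Of the synaptic vesicle genes only Syn1, the vesicle-tethering protein synapsin 1 (chrX:20860511-20921004), was detected, at 23.2 ± 1.48 TPM. Syp, a membrane protein of the vesicle, had 3 counts in control and all of them lay in replicate 2. Syt1, the calcium sensor of release, and Snap25, the membrane SNARE, had none, while Snap23, the SNARE of most other cells, was at 30.8 ± 1.51 TPM. Timp1, a metalloprotease inhibitor, lies inside an intron of Syn1 on the opposite strand. Timp1 had 52.4 ± 0.725 CPM in control, and its exons share 0 bases with those of Syn1. The neighbouring Araf, a kinase gene at 86.3 ± 2.94 CPM, shares 9. The sources used here give no strand setting, and how far reads of either gene reached the Syn1 count was not tested.

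At the postsynaptic side, Dlg4, which encodes the scaffold protein PSD-95 (chr11:70016942-70047522), had the most CPM of the panel (70.1 ± 3.45), but over its long exons this was 16.4 ± 1.06 TPM, above 35.8% of detected protein-coding genes. Its relatives Dlg1 and Dlg3 were at 64.2 ± 1.46 and 15.6 ± 0.529 TPM. Camk2a, the alpha subunit of the calcium-dependent kinase of dendritic spines (chr18:60925618-60988152), was at 1.51 ± 0.330 TPM, against 20.6 ± 1.35 and 31.6 ± 1.65 TPM of the widely made Camk2d and Camk2g. The AMPA receptor subunits Gria1 and Gria2 had 12 counts and 1 count over the control libraries, and the NMDA receptor subunits Grin1 and Grin2b had 0. Slc17a7, which loads glutamate into vesicles, had 7 counts, and Gad1 and Gad2, which make GABA, had 0. None of these 3 transmitter genes was detected in control. Of 14 further ionotropic glutamate receptor genes, 4 were detected, led by the kainate subunit Grik2 at 14.5 ± 0.582 CPM, Grin2d at 4.19 ± 0.754 CPM and Grik5 at 1.94 ± 0.457 CPM.

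The adhesion gene Ncam1 (chr9:49502136-49798925) was at 24.4 ± 0.875 TPM in control and the neurotrophin gene Bdnf (chr2:109674700-109727007) at 17.5 ± 1.36 TPM. Both genes are also made outside the nervous system. Ntrk2, the receptor for BDNF, had no count in any library. Of 10 other neurotrophins and receptors 2 were detected, among them Gdnf at 11.99 ± 0.416 CPM. The receptor Ntrk3 had 1 count in all, in Hb+NTR1 replicate 1. Of 11 neural adhesion genes beside Ncam1 only Cdh2, which encodes N-cadherin, was detected (162 ± 11.1 CPM). L1cam was at 0.928 ± 0.146 CPM, and Ncam2 had no count in control.

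Among genes of neuronal fate and RNA processing none was detected in control. Neurod1, a driver of neuronal differentiation, and Prox1, a marker of dentate granule cells, had no count there, and Nes, the intermediate filament of neural progenitors, had 2. Rbfox3, which encodes the nuclear marker NeuN, had 2 counts in control, against 105.6 ± 4.80 TPM of its relative Rbfox2. Elavl3 had 9, 5 and 10 counts, and Elavl4 had 0, against 36.2 ± 2.81 TPM of Elavl1. Uchl1, a ubiquitin hydrolase abundant in neurons, had no count, whereas Uchl3 and Uchl5 were at 21.3 ± 1.09 and 65.9 ± 6.55 TPM. All 19 widely expressed relatives that were in the table (1 more, Synpl, was not found under this symbol) were detected in control. This list was chosen for broad expression, so its detection was favoured in advance and is no result beside the panel.

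**Figure D2:**
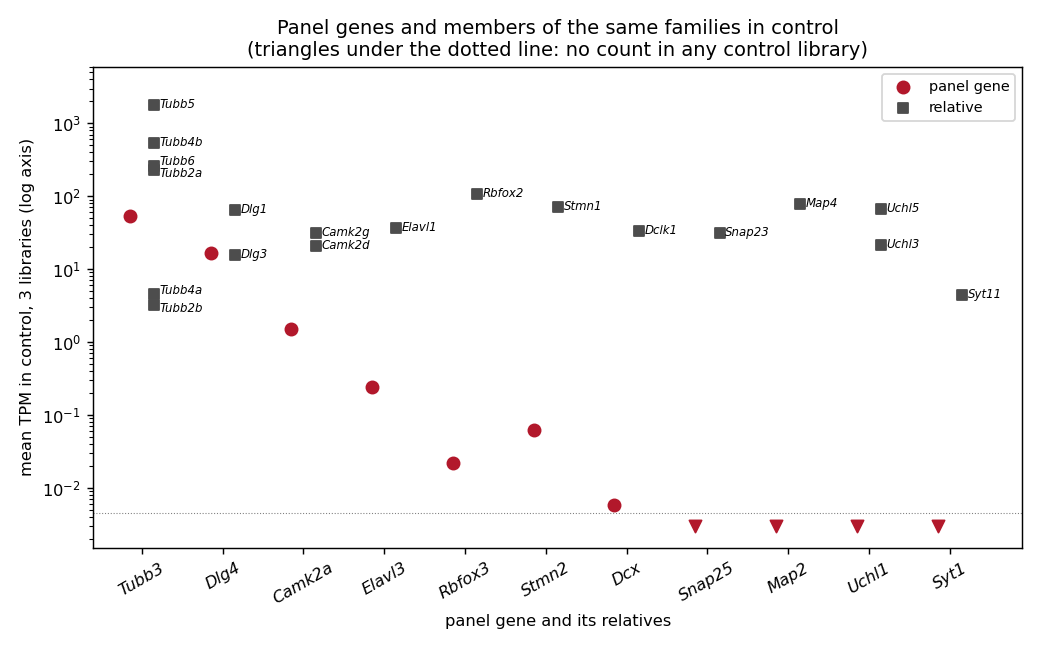
Mean TPM in the 3 control libraries (log axis) of 11 panel genes (red) and of members of the same gene families (grey squares), with red triangles for panel genes without a count. Except for Tubb4a, Tubb2b and, at a level close to that of Dlg4, Dlg3, each relative lies above its panel gene.

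Other gene lists were read in the same libraries. Of 30 further neuronal genes 13 were detected, led by Map1b (313 ± 26.4 CPM), Dpysl3 (166 ± 3.05 CPM) and Thy1 (77.2 ± 2.17 CPM), of which several are also made by other cells, and 11 had no count in control, among them Ina and Bex1. Of 11 neural progenitor markers Msi1 alone was detected (5.52 ± 0.111 CPM), and Sox2, Sox1, Fabp7, Hes5, Prom1, Sox11, Zic1, Pax6 and Neurog2 were among the 10 without a count in control. Of 15 fibroblast and mesenchymal markers 12 were detected, and their summed level in control ran from 15029 to 15980 CPM. The whole neuronal panel summed to 231 to 243 CPM and the further neuronal genes to 642 to 693 CPM. Of the mesenchymal markers, Col1a2 alone had 9086 ± 221 CPM, while Fap had no count in control and Lum and Fbln1 had traces. Detected were also 3 of 9 astrocyte, 2 of 8 oligodendrocyte, 1 of 9 microglia, 0 of 7 endothelial, 1 of 6 epithelial and 1 of 6 skeletal muscle markers. The astrocyte markers were Slc1a3 (211 ± 14.5 CPM), Gja1 (116 ± 3.31 CPM) and Glul (12.6 ± 2.18 CPM), with Aqp4 at 0. Of the oligodendrocyte list Cspg4 was the highest (192 ± 2.99 CPM), and Olig2 was at 0. The markers detected in the microglia, epithelial and muscle lists were Tmem119 (20.6 ± 4.12 CPM), Cdh1 (15.05 ± 1.73 CPM) and Des (7.29 ± 0.444 CPM). Most markers of the labelled neuronal cell type were thus absent or at traces, and no other cell type is assigned here.

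**Figure D3:**
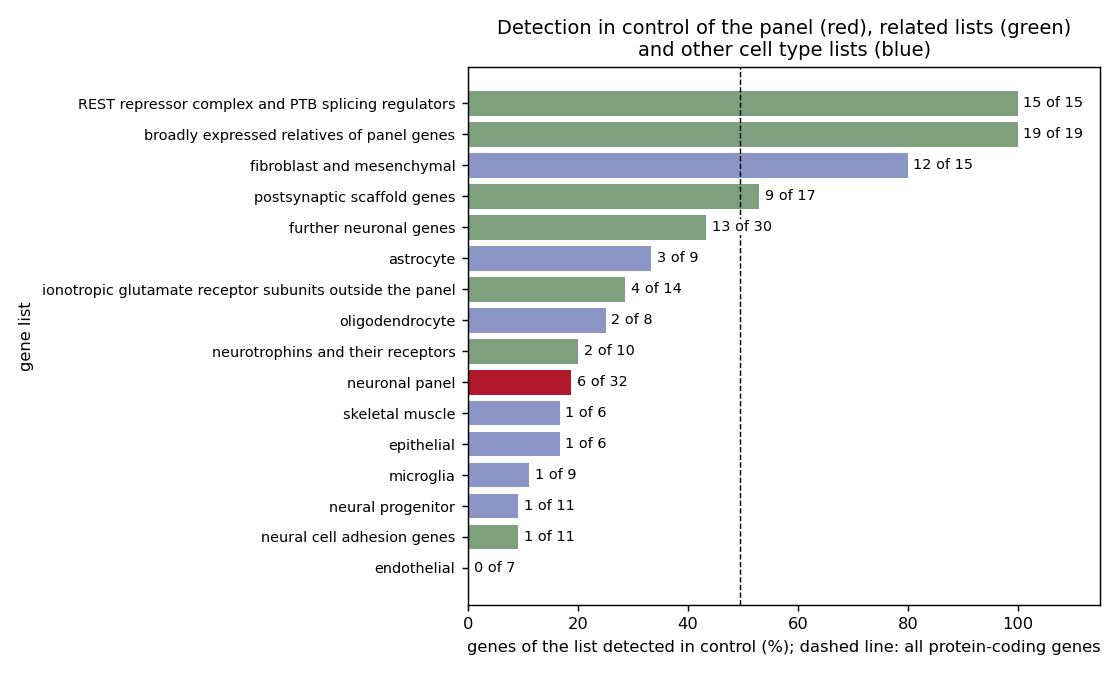
Share of the genes of each list detected in control (bars, with the number of genes), for the neuronal panel in red, related gene lists in green and markers of other cell types in blue, and for all protein-coding genes (dashed line, 49.5%). The panel, at 6 of 32, lies below the line, and the mesenchymal list, at 12 of 15, above it.

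REST and its partners were present in the control libraries. Rest was at 116 ± 6.49 CPM, and all 15 genes of the list of REST cofactors and PTB splicing regulators were detected, the highest being Ptbp1 (433 ± 11.2 CPM), a splicing repressor of neuronal exons, the chromatin remodeller Smarca4 (240 ± 1.75 CPM) and the histone deacetylase Hdac2 (237 ± 10.8 CPM). Because RE1 is the best known switch of the panel genes, their promoters were searched on both strands for the RE1 consensus, with up to 4 differences in its 19 defined letters. RefSeq windows of 300 bases around the start (GRCm38.p6) were found for 21 of the 32 genes, 35 windows in all. Of these, 3 held a match, in Syn1, Gria2 and Gad2, where 75 of all 32851 windows (0.228%) did. No match says only that these letters are not in this window. The 3 matches are given in the direction of the element, since they join the detected Syn1 with a pair of genes of the panel that were almost or wholly without counts. Capitals mark the letters that match the element.
Syn1, chrX:20921130-20921150: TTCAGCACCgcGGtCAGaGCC
Gria2, chr3:80802989-80803009: TTtAGCACCgcGGACAGCGCt
Gad2, chr2:22622161-22622181: ggtAGCACCctGGACAGCGCg

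In Syn1 the match lies on the strand of the gene, 17 of 19 letters, and begins 232 bases before the RefSeq start. In Gria2 it lies on the opposite strand, also 17 of 19 letters, and the stretch begins 174 bases before the start. The Gad2 match has 15 of 19 letters and begins 166 bases before the start. The sequence upstream of each gene follows, 5′ to 3′ on the strand of the gene, up to the first base of the GENCODE gene model, with the stretch that holds the match in capitals.
Syn1, chrX:20921005-20921168, minus strand: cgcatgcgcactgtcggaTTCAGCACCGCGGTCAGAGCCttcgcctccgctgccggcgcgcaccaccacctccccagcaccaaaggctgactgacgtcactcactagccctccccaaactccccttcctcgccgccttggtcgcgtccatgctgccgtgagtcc
Gria2, chr3:80802836-80803085, minus strand: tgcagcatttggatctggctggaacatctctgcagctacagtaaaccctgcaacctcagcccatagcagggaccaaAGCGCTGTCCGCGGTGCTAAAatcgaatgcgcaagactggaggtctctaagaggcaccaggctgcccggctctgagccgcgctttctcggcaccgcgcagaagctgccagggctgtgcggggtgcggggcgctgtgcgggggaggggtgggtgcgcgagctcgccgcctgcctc
Gad2, chr2:22622077-22622204, plus strand: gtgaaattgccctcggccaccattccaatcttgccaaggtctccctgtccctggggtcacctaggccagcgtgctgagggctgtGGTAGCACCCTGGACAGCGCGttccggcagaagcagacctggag

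The Syn1 window also held the cyclic AMP response element TGACGTCA, which 588 of all windows (1.79%) contain and no other panel window did. Promoter CpG content overlapped between the classes. The ratio of observed to expected CpG had a median of 0.493 in the 12 windows of 4 detected genes, 0.567 in the 8 windows of 7 genes with traces and 0.568 in the 15 windows of 10 genes without a count. These medians are over windows, so genes with several windows, such as Bdnf and Dlg4 among the detected, weigh more. Medians over genes were not computed.

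The first comparison asked what oxyhemoglobin changed in the panel. Of the 32 genes 7 passed the filter on low counts and were tested, the 6 detected ones and Elavl3, and 1 of them, Bdnf, was past an adjusted p of 0.05 in Hb against control, where 3.65% of all 13810 genes tested were. Its libraries were also the only ones of the 7 that did not overlap between these groups, which held for 19.6% of all genes tested. Bdnf had 36.0, 36.8 and 32.4 CPM in the control libraries, 24.54, 27.6 and 27.0 CPM in Hb and 15.9, 15.9 and 18.1 CPM in Hb+NTR1. The 3 groups did not overlap, and each Hb library lay between the other groups. Bdnf fell by 0.41 on the log2 scale in Hb (SE 0.0942, edgeR adjusted p = 0.0118). The call ended without control replicate 1 (adjusted p = 0.0600), control replicate 2 (0.0808) or Hb replicate 1 (0.0598). The bases that Bdnf shares with an antisense gene, Gm45346, were 14.4% of its exon length, and that gene had a mean of 4 counts in control.

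The other tested members had these values in Hb against control. Tubb3 had 31.6, 34.3 and 31.97 CPM in control and 36.6, 41.3 and 32.2 CPM in Hb, overlapping groups (log2 fold change 0.17 ± 0.0979, edgeR adjusted p = 0.406). Ncam1 had 64.0, 70.9 and 69.9 CPM in control and 66.8, 65.5 and 58.0 CPM in Hb (log2 fold change -0.10 ± 0.0741, edgeR adjusted p = 0.526). For Dlg4 the log2 fold change was 0.0094 ± 0.0707 and for Syn1 0.038 ± 0.0931, at edgeR adjusted p = 0.970 and 0.889. The sparse Camk2a and Elavl3 had log2 fold changes of -0.085 ± 0.317 and -0.15 ± 0.497 (edgeR adjusted p = 0.932 and 0.920), with the widest standard errors of the 7. Among the neurotrophins, Gdnf, a survival factor of motor and dopamine neurons, rose from 11.99 ± 0.416 to 17.8 ± 2.12 CPM (edgeR adjusted p = 0.0193), the 1 call among the 3 tested genes of that list. Of the markers of other cell types, Slc1a3 fell in Hb to 123 ± 12.3 CPM, Tmem119 to 13.3 ± 0.906 CPM and 5 of 12 tested mesenchymal genes, namely Col1a1, Col1a2, Fbn1, Pdgfra and Postn, and Cdh1 was higher at 20.8 ± 2.07 CPM. None of the tested further neuronal genes (0 of 13), relatives (0 of 19), glutamate receptor genes (0 of 6), scaffold genes (0 of 11), adhesion genes (0 of 2) and REST list genes (0 of 15) passed by edgeR. Of all genes tested, 1.88% were higher and 1.77% lower in Hb (3.65% in either direction). Lists of these sizes without a call thus match the background.

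The second comparison, Hb+NTR1 against control, covers both agents together. Of the 7 tested members 5 were lower and 1 was higher, where 32.2% and 31.4% of all genes tested were (63.6% in either direction). Elavl3 passed the filter only through its Hb+NTR1 libraries, so that its difference was partly fixed by the filter. The third comparison, Hb+NTR1 against Hb, asked what NTR1 changed in oxyhemoglobin-treated cells, and gave 5 lower and 1 higher again, where 31.6% and 30.7% of all genes were (62.3% in either direction). The 1 higher was again Elavl3, with the same limit from the filter. The comparisons share libraries, so neither supports the other.

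**Figure D4:**
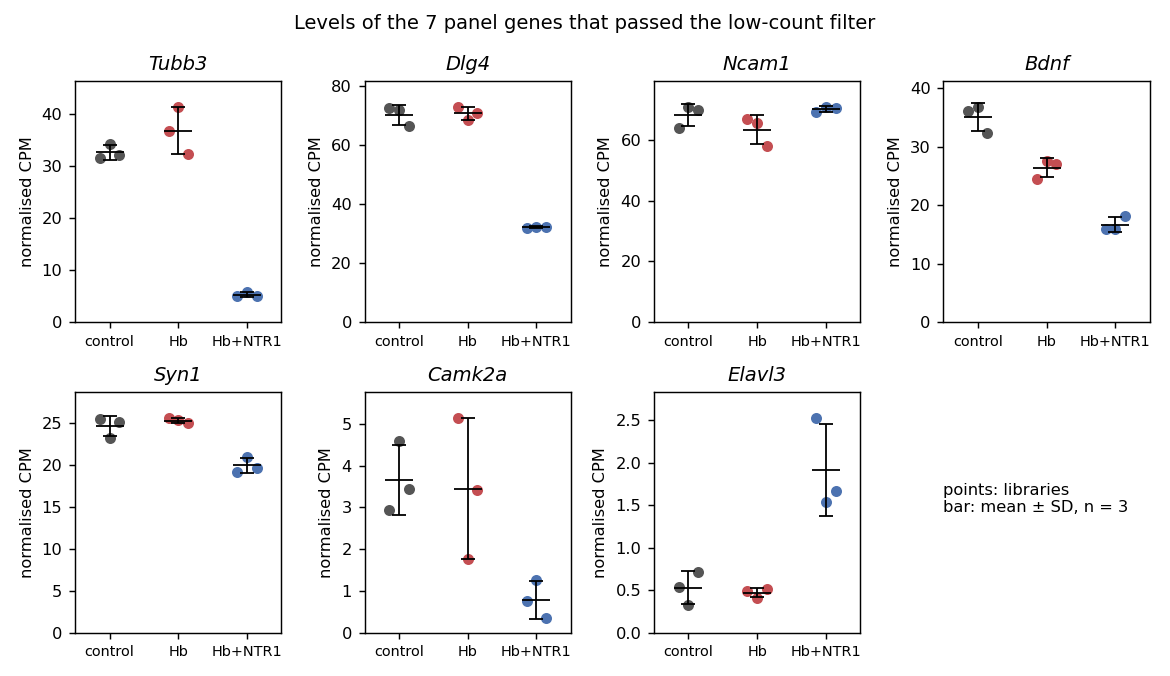
Normalised CPM of the 7 tested panel genes in each library (points) of control, Hb and Hb+NTR1, with mean ± SD (n = 3 each), each axis starting at 0. The Hb+NTR1 libraries lie below both other groups for Tubb3, Dlg4, Bdnf, Syn1 and Camk2a and above them for Elavl3.

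Tubb3 was far lower in Hb+NTR1. Its Hb+NTR1 libraries had 4.93, 5.75 and 5.07 CPM, below the lowest library of the other groups (31.6 CPM). Tubb3 was 6.20-fold lower than in control (log2 fold change -2.63 ± 0.123, edgeR adjusted p = 6.94e-15) and 6.99-fold lower than in Hb (log2 fold change -2.81 ± 0.122, edgeR adjusted p = 2.44e-15). Its share of the TPM of 8 beta-tubulin genes was 1.88% ± 0.0961 in control, 2.31% ± 0.150 in Hb, then 0.333% ± 0.0208 in Hb+NTR1. The family did not move as one. Tubb2b, the other beta-tubulin enriched in young neurons, fell from 2.37 ± 0.366 to 0.368 ± 0.239 CPM (edgeR adjusted p = 5.66e-06), Tubb5 fell from 1922 ± 23.5 to 1470 ± 81.3 CPM and Tubb2a from 120 ± 1.254 to 86.7 ± 5.69 CPM. By contrast, Tubb4b rose from 364 ± 3.47 to 489 ± 30.2 CPM, Tubb6 from 204 ± 8.13 to 266 ± 5.82 CPM and Tubb4a from 3.23 ± 0.257 to 5.74 ± 1.05 CPM, each past the threshold.

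Dlg4 had 72.5, 71.7 and 66.2 CPM in control, 72.8, 68.3 and 70.8 CPM in Hb and 31.8, 32.3 and 32.1 CPM in Hb+NTR1. The Hb+NTR1 libraries were thus close to each other and apart from the rest. The fall was 2.18-fold from control (log2 fold change -1.13 ± 0.0746, edgeR adjusted p = 4.35e-12) and 2.20-fold from Hb (log2 fold change -1.14 ± 0.0749, edgeR adjusted p = 4.47e-12). Of 11 tested genes of the postsynaptic scaffold list, 3 were higher and 7 lower in Hb+NTR1 than in control, where 31.4% and 32.2% of all genes tested were, with a median log2 fold change of -0.36, beside -0.0042 over all genes tested. The adhesion gene Nlgn2 fell from 74.7 ± 9.62 to 35.9 ± 1.15 CPM. The scaffold gene Homer1 rose from 25.0 ± 3.96 to 47.0 ± 3.41 CPM, and Dlg1 rose from 222 ± 1.57 to 299 ± 11.1 CPM. Shank1, the other of the 3 higher genes (log2 fold change 2.39 ± 0.497), had a wider standard error than Elavl3 (0.398). Only 9 genes of the list were detected in control but 11 were tested, so the filter may have favoured the rise of Shank1.

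Camk2a had 2.95, 4.58 and 3.43 CPM in control, 5.15, 1.77 and 3.41 CPM in Hb and 0.753, 1.26 and 0.348 CPM in Hb+NTR1. Its Hb libraries spread widely, and each of them still lay above the Hb+NTR1 libraries. Camk2a fell 4.60-fold from control (log2 fold change -2.20 ± 0.395, edgeR adjusted p = 3.85e-05) and 4.33-fold from Hb (edgeR adjusted p = 7.45e-05). With a mean of 0.787 CPM it was no longer detected by the rule used for control. Camk2d fell from 150 ± 7.23 to 97.2 ± 5.56 CPM, while Camk2g rose from 65.4 ± 4.28 to 81.8 ± 2.29 CPM. Bdnf fell 2.11-fold from control (log2 fold change -1.08 ± 0.0984, edgeR adjusted p = 1.37e-09) and 1.59-fold from Hb (edgeR adjusted p = 3.99e-06). Among the 3 tested genes of its family list, 0 were higher and 1 lower than in control, where 31.4% and 32.2% of all genes tested were. Gdnf, at 10.8 ± 2.501 CPM in Hb+NTR1, did not pass.

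Syn1 had 25.6, 23.2 and 25.2 CPM in control, 25.7, 25.3 and 25.0 CPM in Hb and 19.2, 20.97 and 19.7 CPM in Hb+NTR1. The fall was small, 1.24-fold from control (log2 fold change -0.31 ± 0.0949, edgeR adjusted p = 0.00740) and 1.27-fold from Hb (edgeR adjusted p = 0.00318). Timp1, which lies within Syn1, had 28.2 ± 2.04 CPM in Hb+NTR1 against 52.4 ± 0.725 CPM in control. Its part in the Syn1 value was not tested. Ncam1 had 69.2, 70.8 and 70.7 CPM in Hb+NTR1 and did not pass against control (log2 fold change 0.042 ± 0.0736, edgeR adjusted p = 0.634) or against Hb (log2 fold change 0.15 ± 0.0742, edgeR adjusted p = 0.0900), although its Hb+NTR1 libraries lay above those of Hb, as 64.7% of all genes tested did not overlap in that comparison. Cdh2, the other abundant adhesion gene, rose from 162 ± 11.1 to 196 ± 0.948 CPM, and L1cam rose from 0.928 ± 0.146 to 1.96 ± 0.330 CPM, the 2 tested genes of the adhesion list.

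Elavl3 was the 1 tested member that was higher, with 9, 5 and 10 counts in control, 7, 6 and 7 in Hb, then 37, 22 and 24 in Hb+NTR1. In CPM this was 0.529 ± 0.192, 0.474 ± 0.0572 and 1.91 ± 0.538, and the Hb+NTR1 libraries lay above the rest (3.599-fold above control, log2 fold change 1.85 ± 0.398, edgeR adjusted p = 3.04e-04, and 3.999-fold above Hb, edgeR adjusted p = 1.92e-04). It passed the filter only through these libraries, so these differences were partly fixed by the filter. Per length Elavl3 stayed low, at 0.934 ± 0.279 TPM. Slc17a7 did not pass the filter, with 3, 1 and 3 counts in control, 3, 0 and 3 in Hb, then 19, 17 and 7 in Hb+NTR1. When no filter was applied it was higher than in control (edgeR adjusted p = 0.00105) and than in Hb (edgeR adjusted p = 9.07e-04), as was Syt1 against control (edgeR adjusted p = 0.00412), which had 0 counts in control, 0, 0 and 2 in Hb, then 7, 6 and 3 in Hb+NTR1. Gria2 had 7, 2 and 0 counts in Hb+NTR1, and its difference from Hb (edgeR adjusted p = 0.0481 with no filter) rested mostly on 1 library. The authors' deposited table of Hb+NTR1 against control lists 4 panel genes, Tubb3 (log2 fold change -2.63), Camk2a (-2.21), Slc17a7 (2.69) and Syt1 (4.93). The smallest absolute log2 fold change in that table is 2.005, and the largest of the authors' adjusted p-values is 0.00994. Dlg4, Bdnf, Syn1 and Elavl3 had smaller changes by edgeR, so their absence from it does not show that the authors' test failed to call them.

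**Figure D5:**
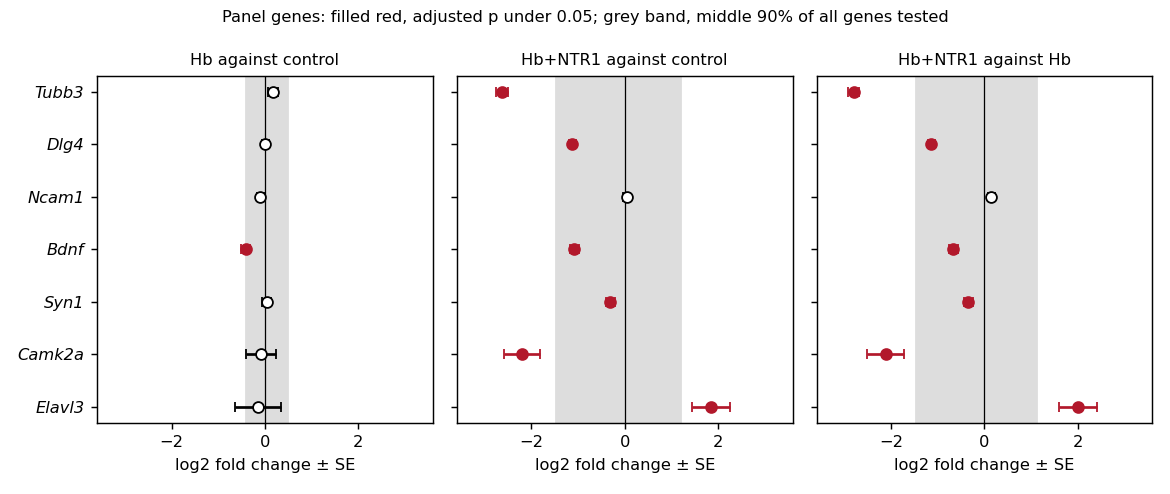
Log2 fold change ± SE of the 7 tested panel genes in the 3 comparisons, filled red where the edgeR adjusted p was under 0.05, with the middle 90% of all 13810 genes tested as a grey band. In Hb+NTR1 against control, Tubb3, Camk2a and Elavl3 lie outside the band, and Dlg4, Bdnf, Syn1 and Ncam1 inside it.

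The 26 genes not detected in control together had 30, 18 and 25 counts in the control libraries, 24, 14 and 28 in Hb and 81, 56 and 47 in Hb+NTR1. The Hb+NTR1 libraries lay above the others, but the genes were chosen for low counts in control, which favours higher sums elsewhere. Without Elavl3 and Slc17a7, a choice made after their values were seen, the sums were 18, 12 and 12, 14, 8 and 18, and 25, 17 and 16, and both control and Hb overlapped Hb+NTR1. Of the 13 members with no count in control, Syt1 had any in Hb, while Nefl, Syt1, Grin1, Gad2, Neurod1, Prox1 and Elavl4, 7 in all, had at least 1 count in Hb+NTR1. Of the 7263 protein-coding entries without a count in control, 11.1% had a count in Hb and 21.8% in Hb+NTR1. None of the 7 exceeded 16 counts over the 3 Hb+NTR1 libraries together.

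The other lists are given for Hb+NTR1 against control, where 31.4% of all genes tested were higher and 32.2% lower (63.6% in either direction), so that calls in about that share of a list match the background. Of the further neuronal genes 2 were higher and 5 lower of 13 tested (median log2 fold change -0.35), with Thy1 down from 77.2 ± 2.17 to 25.9 ± 1.08 CPM and Celf4, a neuronal RNA-binding protein gene, down from 17.7 ± 0.950 to 9.78 ± 0.277 CPM. Of the relatives 7 were higher and 9 lower of 19 (median -0.21), with Dclk1 down from 163 ± 1.26 to 87.2 ± 5.36 CPM, Snap23 up from 42.7 ± 2.23 to 64.8 ± 6.16 CPM and Vim down from 2883 ± 52.4 to 1440 ± 47.3 CPM. Of the glutamate receptor genes 1 was higher and 1 lower of 6 (median -0.060). Of the REST and PTB list 3 were higher and 7 lower of 15 (median -0.15), with Rest up from 116 ± 6.49 to 146 ± 0.420 CPM, Sin3a up from 91.7 ± 6.43 to 113 ± 3.57 CPM Ctdsp2 down from 207 ± 4.78 to 133 ± 5.51 CPM and Ptbp1 down from 433 ± 11.2 to 288 ± 12.3 CPM. Of the mesenchymal markers all 12 tested were lower (median -2.90), and their summed level ran from 1719 to 1830 CPM in Hb+NTR1, from 12061 to 13692 CPM in Hb and from 15029 to 15980 CPM in control. Lower were also 3 of 5 tested astrocyte, 2 of 2 oligodendrocyte and the single tested microglia, epithelial, muscle and progenitor markers, and the single tested endothelial marker was Pecam1, with 9, 7 and 7 counts in control and 30, 20 and 24 in Hb+NTR1. Like Elavl3, Pecam1 passed the filter only through its Hb+NTR1 libraries. Of the glutamate receptor genes 4 were detected in control but 6 were tested. The same limit may thus hold for the 1 higher gene there, Grin3b (log2 fold change 1.10 ± 0.358). The part of these changes in those of the panel was not tested.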

How the data were processed

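Tools in the submitters' processing notes are HTSeq 0.10.0, HISAT2 2.1.0 and bcl2fastq 2.19.1.403, with GRCm38 as genome. The sources used here give no annotation release or strand setting. The deposited counts are raw, per gene symbol. Of 54232 entries, 98 repeats were removed. The authors' deposited table of 691 genes compares Hb+NTR1 with control by log2 fold change and p-value, by a test the sources used here do not name, and holds the same counts. Columns named N were taken as Hb+NTR1 because that table, named for the submitters' code for this group against control, holds N and control columns. Which N column is which sample is not shown, so Hb+NTR1 libraries are numbered by column.

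Counts were fitted in R 4.3.3 with edgeR 4.0.16 (filterByExpr, minimum count 10, TMM, robust quasi-likelihood F test, two-sided, all 9 libraries), with Benjamini-Hochberg adjustment over 13810 genes and a threshold of 0.05. The fit was tested on simulated data. TPM used exon lengths of GENCODE M21, matched by symbol for 53067 entries. The panel, the further lists (related neuronal genes, relatives, glutamate receptors, scaffold, neurotrophin, adhesion and REST genes, and markers of 8 other cell types) and the rules were chosen with earlier results of these data known. Named were all panel genes and, of each list, the 3 highest in control, the 2 largest rises and 2 largest falls called in Hb+NTR1 against control with at least 5 CPM, and calls in Hb. Relatives and a few genes at 0 were named besides. Alternatives were DESeq2 1.42.0, its size factors, other filters, fewer libraries and a replicate block. Some genes that this rule selects are not reported here.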

Additional observations from a re-analysis of the deposited data

How the results depend on the processing

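Of 300 alternative values of the 7 tested panel genes, 297 kept their direction, or had no call to lose, and stayed on their side of the threshold. The other 3 were those of Bdnf in Hb against control. With 1 library left out in turn, the genes called in Hb against control ran from 285 (without control replicate 2) to 1125 (without Hb replicate 2), with 315 and 286 without control replicates 1 and 3, and the panel genes called there ran from 0 to 1. The cause was not tested. The 6 genes detected in control became 7 at 0.5 CPM and 5 at 5 CPM. With the replicate block, 674 genes were called in Hb against control, Bdnf among them. Same-numbered control and Hb libraries did not deviate together (correlations of 0.0953, -0.0226 and -0.0488 across genes), so the numbers were not taken as pairs. No paired analysis was possible for Hb+NTR1 because its columns do not show which sample they are. Depth limits the panel genes with a few counts.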
